A study of Mus musculus with 16 samples.

Results

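The 9 forkhead genes described here are Foxa1, Foxa2, Foxa3, Foxo1, Foxo3, Foxp1, Foxp2, Foxp4 and Foxq1. Their regions were taken from ATAC-seq peaks, sites of open chromatin cut by the Tn5 transposase, that differed in accessibility between non-neuroendocrine (non-NE) and neuroendocrine (NE) cells of mouse small cell lung cancer (SCLC). A peak was assigned to a gene when the protein-coding transcription start site nearest to the centre of the peak belonged to that gene. By this rule 219 of the 80367 listed peaks were assigned to the 9 genes.

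TKO;Hes1 GFP/+ mice were the source of the cells. In these mice both alleles of Rb, of p53 and of p130 are floxed (fl/fl) and are deleted in the lung by an adenovirus expressing Cre from the CMV promoter (Ad-CMV-Cre), which is not restricted to a cell type, given to young adult animals of both sexes some months before the tumors were collected. GFP is expressed from the endogenous Hes1 gene, a Notch target, so both groups carried the TKO alleles and the reporter in 1 copy of Hes1, and they differed in the sort for GFP. The non-NE group was the GFP high sort, labelled as Hes1-GFP positive, and the NE group was the GFP neg sort. The tumors of each animal were pooled, and 4 pairs of populations were sorted from 3 mice, 1 of the pairs being a technical replicate, which gave 8 libraries sequenced on 2 lanes each. The authors compared the groups and deposited a list of 40828 peaks more opened and a list of 39539 peaks more closed in GFP high cells, here called opened and closed peaks. The lists hold 1 row per peak and no value per library, so no spread between animals and no depth can be given, and no test over samples was possible. A region without a listed peak was not in the lists, which does not say that it was inaccessible or that it did not differ.

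Forkhead factors bind DNA through a winged-helix domain and recognise sites built around TGTTTAC. FOXA proteins are pioneer factors, able to bind their sites in closed chromatin, and FOXA1 and FOXA2 act in lung branching and in the differentiation of the airway epithelium, whereas FOXA3 is best known from the liver and from goblet cells. FOXO1 and FOXO3 carry the output of PI3K and AKT signaling, since AKT phosphorylates them and keeps them out of the nucleus. FOXP1, FOXP2 and FOXP4 are mostly repressors that form dimers with each other and act together in the lung epithelium, and FOXQ1 is known from hair and from the epithelial to mesenchymal transition of carcinoma cells.

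Among the peaks of the 9 genes, 120 were opened and 99 were closed in GFP high cells, so that 54.8% were opened (95% Wilson interval, 48.2 to 61.2) against 50.8% of all listed peaks. The intervals on such shares cover counting error only, and neighbouring peaks of a gene are not independent. The share over the 9 genes was thus close to the background, and the interval held it. The genes were not alike. At Foxo3, 14 peaks were opened and 3 were closed (82.4% opened, 59.0 to 93.8), and at Foxq1, 20 were opened and 5 were closed (80.0%, 60.9 to 91.1). These were the genes whose interval lay above the share of all listed peaks, and for none of the 9 did it lie below. Among peaks within 100 kb of the start site, however, Foxo3 was 80.0% opened (54.8 to 93.0) against 55.7% of all listed peaks, which its interval then held. Foxa1 had 6 opened and 10 closed peaks (37.5%, 18.5 to 61.4), and Foxa2 had 19 and 26 (42.2%, 29.0 to 56.7). Foxo1 was split evenly, with 21 peaks in each list, and Foxp1 nearly so, with 25 opened and 26 closed. Foxp4 had 9 opened and 5 closed peaks (64.3%, 38.8 to 83.7), Foxp2 had 4 and 3, and Foxa3 had 2, both opened. By family, 42.9% of the 63 Foxa peaks (31.4 to 55.1), 59.3% of the 59 Foxo peaks (46.6 to 70.9) and 52.8% of the 72 Foxp peaks (41.4 to 63.9) were opened, and these intervals overlapped.

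**Figure D1:**
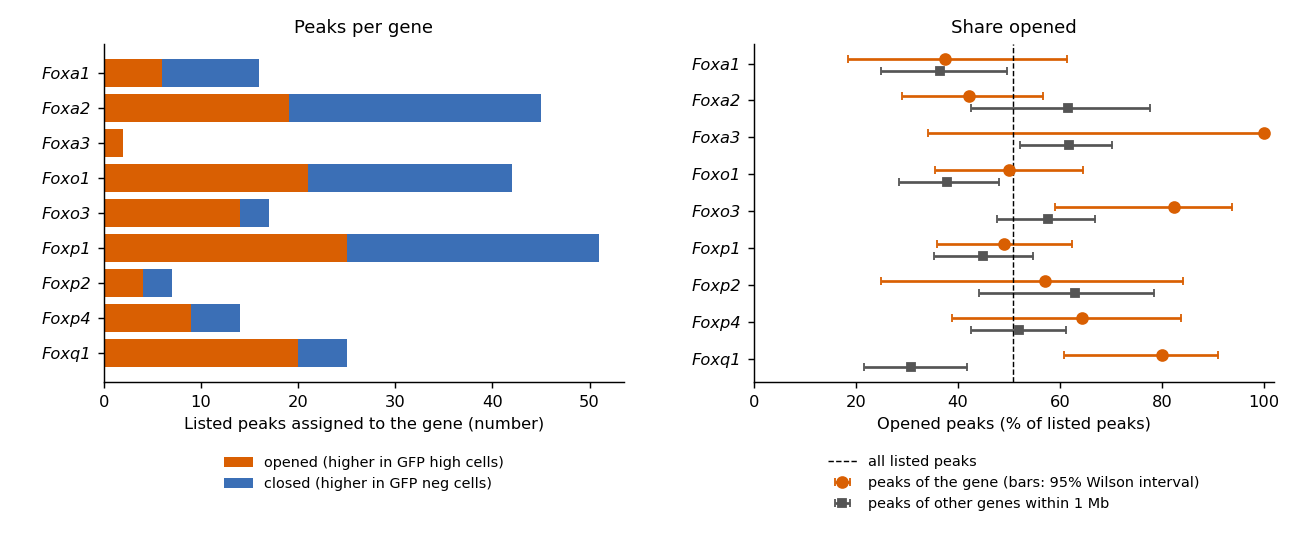
Left, number of listed peaks assigned to each gene, in the opened and the closed list. Right, share of opened peaks (in % of the listed peaks) for each gene, for the peaks of other genes within 1 Mb of it, and for all listed peaks (dashed line, 50.8%), with 95% Wilson intervals as bars. Foxo3 and Foxq1 lie to the right of the dashed line with their whole bars, and at Foxq1 the bar of the neighbouring genes lies wholly below that of the gene.

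Several of these genes gathered many listed peaks. Across the 14590 genes with at least 1 listed peak the median was 3 peaks and the highest number was 96. Foxp1, with 51 peaks, ranked 23rd in this order, Foxa2 with 45 ranked 42nd, and Foxo1 with 42 ranked 66th. The number also depends on how far the next gene is. The nearest other protein-coding start sites lay 681 kb and 348 kb from those of Foxa2, but 19.5 kb and 0.839 kb from that of Foxa3, the member with the fewest peaks. Among the 2349 genes with at least 10 listed peaks the median share of opened peaks was 45.8% and the middle of the distribution ran from 20% to 71.4%. Foxo3 stood at percentile 84.6 of these genes and Foxq1 at percentile 81.4, both above that range, whereas Foxp4 (68.5), Foxo1 and Foxp1 (both 52.1), Foxa2 (46.5) and Foxa1 (41.2) lay inside it.

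All listed peaks at the promoters of the 9 genes were opened in GFP high cells. There were 9 such peaks, with centres within 1 kb of a start site of their own gene, at 5 genes, and none of the 9 was closed (100% opened, 70.1 to 100). Over all listed peaks the same class was 74.3% opened, a share that the interval held, and of 7507 genes with such a peak, 5659 had opened ones only and 1685 closed ones only. Foxp4 had 3 of the 9, Foxo3 and Foxp1 had 2 each, and Foxa3 and Foxo1 had 1 each. Foxa1, Foxa2, Foxp2 and Foxq1 had no listed peak within 1 kb of their start sites, and their nearest peaks lay at 3.66, 5.83, 3.87 and 1.39 kb.

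The signal deposited for each peak is the authors' mean over the samples of both groups, in reads scaled by size factors, so it describes how strong a peak was but not its level in either group. Its median was 149 at the 9 promoter peaks and 29.0 at the other peaks of the 9 genes, against 111 and 28.0 for all listed peaks. The promoter peak of Foxo3 on chromosome 10 (42276565 to 42277241, centre 148 bp upstream of the start site) had a mean of 511, and a second peak 946 bp into the gene had 121. At Foxp4 on chromosome 17 the peak 81 bp upstream of a start site (47924203 to 47924912) had a mean of 355, and its neighbours at 466 bp upstream and 578 bp downstream had 84.3 and 85.0. Foxp1 on chromosome 6 had promoter peaks at separate start sites, one 205 bp upstream of the first (99520922 to 99521483, mean 242) and one 197 bp downstream of an internal one (99265959 to 99266677, mean 193). The promoter peaks of Foxo1 (chromosome 3, 52267702 to 52268106) and Foxa3 (chromosome 7, 19023331 to 19023767) had means of 149 and 125. The promoter peaks lay in the upper part of the opened list, in which 78.4% to 97.6% of the peaks had a lower mean than those of Foxo3, and 70.6% to 94.5% had a lower mean than those of Foxp4.

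The promoter sequences that these opened peaks overlap are shown because they are the promoters of the 9 genes with listed peaks. The sequences of Foxo3, Foxp4 and the first start site of Foxp1 lay wholly inside listed peaks, whereas only 228 of the bases printed for Foxa3, 162 of those for the internal start site of Foxp1 and 20 of those for Foxo1 did. They are RefSeq promoters (GRCm38.p6, the assembly of mm10), the bases before the start site on the strand of the gene, from 5′ to 3′, without bases that lie in an annotated exon. Capitals mark a match on either strand to 1 of 9 strings searched in all windows, which are TGTTTAC (FOX), CATTCC (TEAD), TGANTCA (AP-1), CACTTNA (NKX2), TGGGAA (RBPJ), CAGCTG (E-box), TGTGGTT (RUNX), AACCGGTT (GRHL) and TTGGCA (NFI).
Foxo1, chr3:52268087-52268335, plus strand: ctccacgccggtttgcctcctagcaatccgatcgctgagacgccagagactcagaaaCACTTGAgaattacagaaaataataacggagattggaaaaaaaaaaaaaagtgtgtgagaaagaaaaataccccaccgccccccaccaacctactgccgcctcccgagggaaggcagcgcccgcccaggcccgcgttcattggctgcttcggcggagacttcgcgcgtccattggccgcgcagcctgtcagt
Foxp1 first start site, chr6:99520998-99521243, minus strand: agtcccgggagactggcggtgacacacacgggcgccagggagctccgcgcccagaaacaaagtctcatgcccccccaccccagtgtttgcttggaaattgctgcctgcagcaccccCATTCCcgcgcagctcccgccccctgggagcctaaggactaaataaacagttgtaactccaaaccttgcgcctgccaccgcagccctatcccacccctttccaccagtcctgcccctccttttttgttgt
Foxp1 internal start site, chr6:99266516-99266765, minus strand: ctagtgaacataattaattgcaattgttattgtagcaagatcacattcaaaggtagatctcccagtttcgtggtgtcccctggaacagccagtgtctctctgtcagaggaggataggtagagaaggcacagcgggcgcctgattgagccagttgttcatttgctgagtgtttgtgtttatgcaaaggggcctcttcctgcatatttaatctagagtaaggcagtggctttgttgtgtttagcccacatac
Foxa3, chr7:19023540-19023789, minus strand: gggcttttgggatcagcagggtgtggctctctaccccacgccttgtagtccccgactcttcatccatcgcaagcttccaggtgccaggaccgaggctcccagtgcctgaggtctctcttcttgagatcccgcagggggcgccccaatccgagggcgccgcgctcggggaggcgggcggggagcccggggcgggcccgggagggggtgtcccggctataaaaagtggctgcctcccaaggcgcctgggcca
Foxo3, chr10:42276756-42276945, minus strand: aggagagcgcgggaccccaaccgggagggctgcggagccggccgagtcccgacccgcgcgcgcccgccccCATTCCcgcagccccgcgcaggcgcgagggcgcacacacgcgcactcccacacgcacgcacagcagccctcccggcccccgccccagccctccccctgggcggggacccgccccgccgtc
Foxp4, chr17:47924646-47924882, minus strand: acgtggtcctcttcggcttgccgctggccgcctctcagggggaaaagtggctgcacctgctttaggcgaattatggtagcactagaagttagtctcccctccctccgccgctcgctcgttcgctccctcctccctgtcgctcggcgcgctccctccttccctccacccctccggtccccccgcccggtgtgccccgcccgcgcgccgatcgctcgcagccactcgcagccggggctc

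In these promoters the TEAD string occurred once at the first start site of Foxp1 (134 to 129 bp upstream) and once at Foxo3 (180 to 175 bp upstream), and the NKX2 string occurred once at Foxo1 (193 to 187 bp upstream), outside the listed peak. The promoters of Foxa3 and Foxp4 and the internal promoter of Foxp1 held none of the 9 strings. Of all 32851 RefSeq promoters, read over 250 bases before the start, 12.6% held the TEAD string and 10.1% the NKX2 string, so such matches are common. The FOX string was in 3.17% of these promoters. The promoter entries of 7 of the 9 genes were found, those of Foxp2 and Foxq1 being the others. The FOX string was found in 1 of their 11 entries, 141 to 135 bp upstream of the Foxa1 start site, where there was no listed peak.

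Foxa1 encodes a pioneer factor of the endoderm. It lies on chromosome 12 (57540628 to 57546916, minus strand), and most of its listed peaks lay downstream of it within the neighbouring gene Mipol1, which held 9 of the 10 closed and 3 of the 6 opened peaks. The closed peaks came in clusters, with 5 of them inside 4.15 kb at 63.7 to 67.5 kb from the start site, among them the closed peak with the highest mean (79.9, chromosome 12, 57478397 to 57478755). The 4 peaks in a row on the Foxa1 side of this cluster, from 49.5 to 3.66 kb, were all opened. Among them were the opened peak with the highest mean (83.2), in an exon of Mipol1 at 49.5 kb, and a peak with a mean of 81.6 in an exon of Foxa1 itself. The nearest closed peak lay 5.60 kb upstream of Foxa1 and had a mean of 65.5. The strong peaks of the 2 lists were thus of like signal, and the farthest peak, closed, had a mean of 9.71 at 128 kb.

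Foxa2, the other FOXA gene active in the lung epithelium, had opened and closed peaks in runs along its territory. The gene lies on chromosome 2 (148042877 to 148046969, minus strand). Of its 26 closed peaks, 23 lay downstream of the start site, and all 19 opened peaks were intergenic. The 11 listed peaks farthest downstream, from 206 to 335 kb, were all closed (147711018 to 147840429), with means between 7.58 and 158. A further 10 closed peaks in a row covered 61.7 kb at 52.8 to 114 kb downstream (147931544 to 147993258), and 5 of the closed peaks were in the lincRNA gene 9030622O22Rik. Between these runs lay the opened peak with the highest mean, 227, at 119 kb (147926591 to 147927288), and next to it another opened peak with a mean of 133. The closed peak with the highest mean, 202, lay at 70.9 kb (147974769 to 147975363) and ranked 918th of all 39539 closed peaks. Near the gene the peaks were opened, with both peaks within 10 kb in that list. Among the 44 pairs of adjacent Foxa2 peaks, 33 were of the same list, a share like the 74.8% of such pairs over all genes.

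The central 200 bases of the opened and the closed Foxa2 peak with the highest mean are given on the plus strand of GRCm38.p6, since Foxa2 had no listed promoter peak and these carried the most signal of each list.
Foxa2 opened, chr2:147926840-147927039: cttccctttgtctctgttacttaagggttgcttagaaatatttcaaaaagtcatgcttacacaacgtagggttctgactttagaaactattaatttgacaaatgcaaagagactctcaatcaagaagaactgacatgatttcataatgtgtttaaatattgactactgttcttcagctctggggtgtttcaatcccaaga
Foxa2 closed, chr2:147974967-147975166: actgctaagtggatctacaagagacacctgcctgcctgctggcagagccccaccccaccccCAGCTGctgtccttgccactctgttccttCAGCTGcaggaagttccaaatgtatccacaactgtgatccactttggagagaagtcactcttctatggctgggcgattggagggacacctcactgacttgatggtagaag
The opened window held none of the 9 strings, and the closed window held the E-box string CAGCTG at 2 places.

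Foxa3 had 2 listed peaks, both opened, the promoter peak with a mean of 125 and one in an intron 2.31 kb from the start site with a mean of 22.5.

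Foxo3, a FOXO factor under the control of AKT, had the listed peak with the highest mean of the 9 genes. The peak centred 1242 bp upstream of its start site (chromosome 10, 42277589 to 42278405, 817 bp wide) had a mean of 822 and ranked 169th of the 40828 opened peaks. With the promoter peak (511), an intergenic peak 17.3 kb upstream (222) and intronic peaks at 25.3 kb (161) and 7.20 kb (144) it belonged to a row of 10 opened peaks that covered 89.2 kb with no closed peak between them. The 3 closed peaks of Foxo3 had means of 7.81, 13.7 and 40.3 and lay 63.4 to 77.0 kb from the start sites. The farthest peak, at 128 kb, was opened with a mean of 125. Peaks assigned to other genes within 1 Mb of Foxo3 were 57.6% opened (47.7 to 66.8, 99 peaks), and the intervals overlapped.

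Foxo1, on chromosome 3 (52268336 to 52353221, plus strand), had opened peaks around its start and a mixed territory farther away. A row of 6 listed peaks around the start site, the farthest at 15.4 kb, was opened, and the promoter peak was among them. Of the 42 peaks, 27 lay over 100 kb from the start site, where 12 were opened and 15 closed. The closed peak with the highest mean (104, 52298721 to 52299003) was in an intron of Foxo1 30.5 kb from the start site, and 5 closed peaks were in the lincRNA gene Gm30173. The farthest peak, 374 kb downstream, was opened with a mean of 45.7. The neighbouring peaks of other genes were 37.8% opened (28.5 to 48.1, 90 peaks).

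Foxp1, a repressor expressed in many epithelia, is a long gene of 597 kb with 6 annotated start sites (chromosome 6, 98925338 to 99522721, minus strand). Most of its peaks lay inside it, with 19 of the 25 opened and 21 of the 26 closed. Opened and closed peaks alternated along the gene in 26 runs, and of the 50 adjacent pairs 25 were of the same list. The signal differed between the lists, here as over all listed peaks. Its median was 76.8 for the opened and 25.2 for the closed Foxp1 peaks, against 40.7 and 25.8 of all listed peaks. Beside the promoter peaks, opened peaks with high means included intronic ones at 78.3 kb (216), 66.6 kb (184) and 31.4 kb (163) and one 1.86 kb upstream of the first start site (188). The run with the most peaks was one of 7 closed peaks over 138 kb between the internal and the first start site, with means between 19.3 and 50.5. The closed peak with the highest mean (129) was also the farthest, 323 kb downstream (98704787 to 98705471). The overlapping gene Gm20696 held the centres of 10 opened and 12 closed Foxp1 peaks.

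Foxp2, a FOXP gene of the distal lung epithelium and the nervous system, had 7 listed peaks, all in its introns. The highest opened mean was 46.2 at 125 kb from the nearest start site and the highest closed mean was 36.9 at 107 kb (chromosome 6, 15321606 to 15321982 and 15304038 to 15304295). Foxp4 had strong peaks in both lists within 51.7 kb. Beside its 3 promoter peaks, an intergenic peak 33.7 kb upstream was opened with a mean of 266, and an intronic peak 34.5 kb downstream of the start site was closed with a mean of 246 (chromosome 17, 47889728 to 47890119). The latter ranked 585th of all closed peaks, the highest rank of a closed peak among the 9 genes. The 3 Foxp4 peaks in the body of the gene away from the promoter were closed, and 6 of the 8 peaks upstream of the promoter peaks were opened.

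Foxq1, a single-exon gene on chromosome 13 (31556134 to 31560976, plus strand), had its listed peaks almost wholly upstream, 19 of 20 opened and all 5 closed ones. All 10 peaks within 100 kb were opened. The row nearest to the gene was the longest of one list among the 9 genes, 14 opened peaks over 198 kb (31359339 to 31557591), with means between 8.36 and 557. The strongest lay 8.49 kb upstream and ranked 754th of the opened peaks, and others with means of 302 and 146 lay 49.4 and 37.4 kb upstream. The 5 closed peaks lay 209 to 263 kb upstream and had means between 8.09 and 18.5. The surroundings differed from the gene, since of the 78 listed peaks of 10 other genes within 1 Mb only 24 were opened (30.8%, 21.6 to 41.7). The closed Foxq1 peak with the highest mean is shown by its central 200 bases on the plus strand, since it held the forkhead string.
Foxq1 closed, chr13:31337700-31337899: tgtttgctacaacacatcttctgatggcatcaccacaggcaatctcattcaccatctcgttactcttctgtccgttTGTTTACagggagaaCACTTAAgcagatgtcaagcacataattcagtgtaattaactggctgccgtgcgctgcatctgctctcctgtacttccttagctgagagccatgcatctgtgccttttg
This window also held the NKX2 string.

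**Figure D2:**
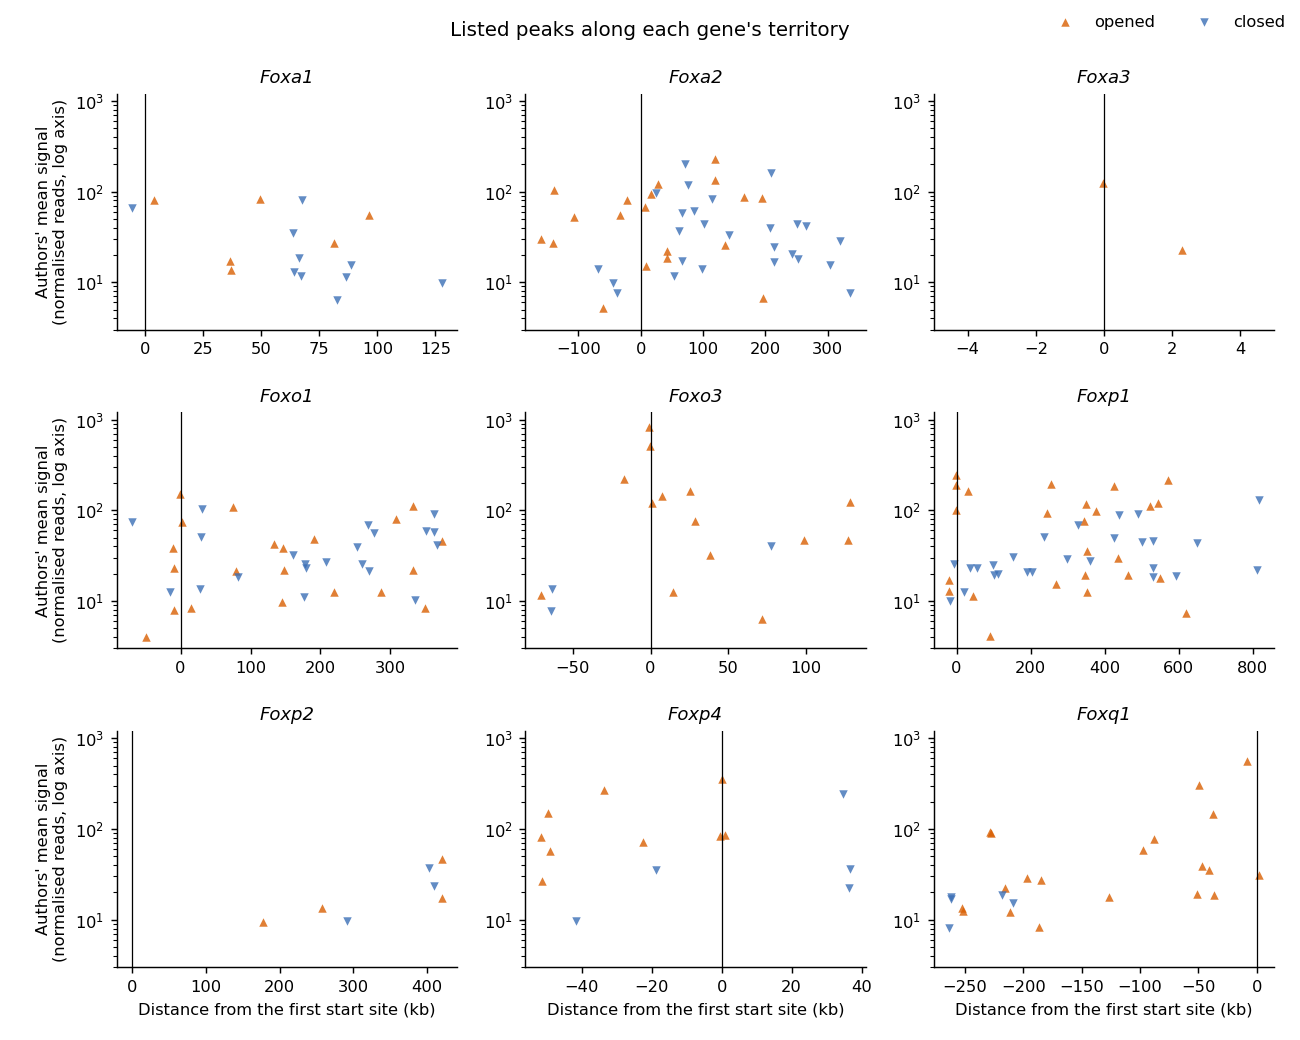
Listed peaks of the 9 genes by distance from the first start site of the gene in kb, positive in the direction of transcription (horizontal axis, own scale for each gene), and the authors' mean signal in normalised reads (log axis). Triangles pointing up are opened and triangles pointing down closed peaks. Foxo3 (822) and Foxq1 (557) have the highest points, both opened and close to the start site, and the downstream end of the Foxa2 panel holds closed peaks only.

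Distance from the start site went with the list in which a peak was found. Of the 32 peaks within 10 kb of a start site of the 9 genes, 26 were opened (81.2%, 64.7 to 91.1), against 51.4% (42.1 to 60.6) of the 109 peaks at 10 to 100 kb and 48.7% (37.9 to 59.6) of the 78 peaks over 100 kb away. Over all listed peaks the shares were 65.4%, 49.6% and 32.5%, so the share of opened peaks over 100 kb away was higher at the 9 genes, with an interval that did not hold the value of all listed peaks, whereas the intervals of the nearer classes held it. The 6 closed peaks within 10 kb belonged to Foxp1 (4), Foxa1 (1) and Foxp2 (1). The peaks of the 9 genes were also more distal. The median distance was 49.2 kb for opened and 70.9 kb for closed peaks, against 17.5 and 42.4 kb over all listed peaks.

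**Figure D3:**
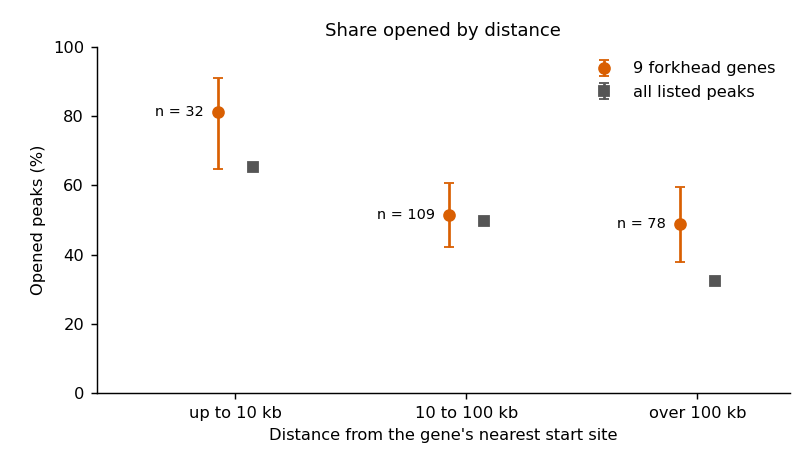
Share of opened peaks (%) in 3 classes of distance from the nearest start site of the gene, for the 9 forkhead genes (circles, number of peaks beside them) and for all listed peaks (squares), with 95% Wilson intervals as bars. The share is highest within 10 kb in both, at 81.2% and 65.4%, and over 100 kb away the circle (48.7%) lies above the square (32.5%).

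By the annotation at the peak centre, with a promoter taken as within 1 kb of a start site of any transcript, 9.17% of the opened peaks of the 9 genes were at promoters, 7.50% in exons, 31.7% in introns and 51.7% intergenic, and all opened peaks were 22.3%, 3.53%, 43.6% and 30.6%. The closed peaks were 2.02% promoter, 4.04% exon, 51.5% intron and 42.4% intergenic, against 9.68%, 3.55%, 50.1% and 36.7% of all closed peaks. Intergenic peaks of the 9 genes were 59.6% opened (50.0 to 68.5) and intronic ones 42.7% (32.9 to 53.1), whereas over all listed peaks these classes were 46.3% and 47.3%. The median of the authors' mean was 45.9 for opened and 24.9 for closed peaks, close to the 40.7 and 25.8 of all listed peaks. Of the 210 pairs of adjacent peaks assigned to the same member gene, 135 (64.3%) were of the same list, below the share over all genes given above.

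Forkhead recognition strings were found among the peaks of the forkhead genes themselves, in both lists. In the central 200 bp, 17 of the 99 closed peaks held TGTTTAC on either strand (17.2%, 11 to 25.8), against 9.70% of all closed peaks, and 7 of the 120 opened peaks did (5.83%, 2.85 to 11.6), against 6.84% of all opened peaks. The interval of the closed peaks lay above the share of all closed peaks, and it overlapped at its edge with that of the opened peaks. Over whole peaks the lists were closer, with the string in 18 of the 99 closed peaks (18.2%, 11.8 to 26.9, against 11.4% of all closed peaks) and in 14 of the 120 opened ones (11.7%, 7.08 to 18.6, against 9.5%). In the central 200 bp, the closed peaks with the string were 5 of Foxa2, 5 of Foxp1, 3 of Foxo1, 3 of Foxp4 and 1 of Foxq1. The opened ones in that window were 2 peaks each of Foxa1, Foxo3 and Foxp1 and 1 of Foxq1. None of the 19 opened Foxa2 or the 21 opened Foxo1 peaks held the string in the central 200 bp. Over whole peaks, 1 opened peak of each of these 2 genes did. Some windows reach past the ends of narrow peaks, so that of the 3 matches in closed Foxp4 windows 1 lay inside its peak. A match is a description of the letters and does not say that a forkhead factor was bound.

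The sites inside the peaks named above, the promoter peaks and those of the highest mean or the greatest distance, are given with the bases around them on the strand of the site, with the string in capitals.
Foxo3 opened peak 1242 bp upstream, chr10:42278257-42278303, plus strand: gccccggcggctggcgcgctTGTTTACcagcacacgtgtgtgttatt
Foxo1 opened promoter peak, chr3:52268044-52268090, minus strand: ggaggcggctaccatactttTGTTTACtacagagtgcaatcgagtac
Foxa1 opened peak of the highest mean, chr12:57496579-57496607, minus strand: aaggcttttagTGTTTACacagtgttgaa
Foxa2 closed peak of the highest mean, chr2:147975260-147975306, plus strand: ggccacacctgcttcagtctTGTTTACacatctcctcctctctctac
Foxp1 farthest closed peak, first site, chr6:98705051-98705097, plus strand: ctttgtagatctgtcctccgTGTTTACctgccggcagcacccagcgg
Foxp1 farthest closed peak, second site, chr6:98705381-98705427, plus strand: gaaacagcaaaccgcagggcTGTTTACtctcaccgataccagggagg
Foxq1 closed peak of the highest mean, chr13:31337756-31337802, plus strand: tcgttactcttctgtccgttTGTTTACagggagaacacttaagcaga

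The strongest Foxo3 peak and the Foxo1 promoter peak thus each held a forkhead string outside the central window, and the strongest closed Foxp1 peak held 2.

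Of the other strings, those of NKX2 and RUNX in opened peaks had intervals just above the share of all opened peaks. The intervals of the rest held the share of all listed peaks of the same list. No allowance was made for the number of strings and lists read. The TEAD string, the site of the partners of YAP1, was in 20.8% of the opened peaks of the 9 genes and 14.1% of the closed ones, against 18.1% and 8.77% of all opened and closed peaks. The NKX2 string, the site of the lung factor NKX2-1 and its relatives, was in 25.8% of the opened peaks (18.8 to 34.3, against 18.6% of all) and 15.2% of the closed ones (14.9%). The AP-1 string was in 13.3% and 26.3% (10.6% and 26.4% of all), and the E-box string was in 9.17% and 22.2% (12% and 22.6%). The RUNX string was in 13.3% of the opened peaks (8.38 to 20.6, against 8.33% of all) and 3.03% of the closed ones (3.6%), the RBPJ string of the Notch pathway in 19.2% of both lists (20.7% and 16.3%), and the NFI string in 19.2% and 10.1% (18.0% and 13.5%). The GRHL string was in none of the 219 windows and in 0.338% of all opened and 0.0759% of all closed peaks.

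**Figure D4:**
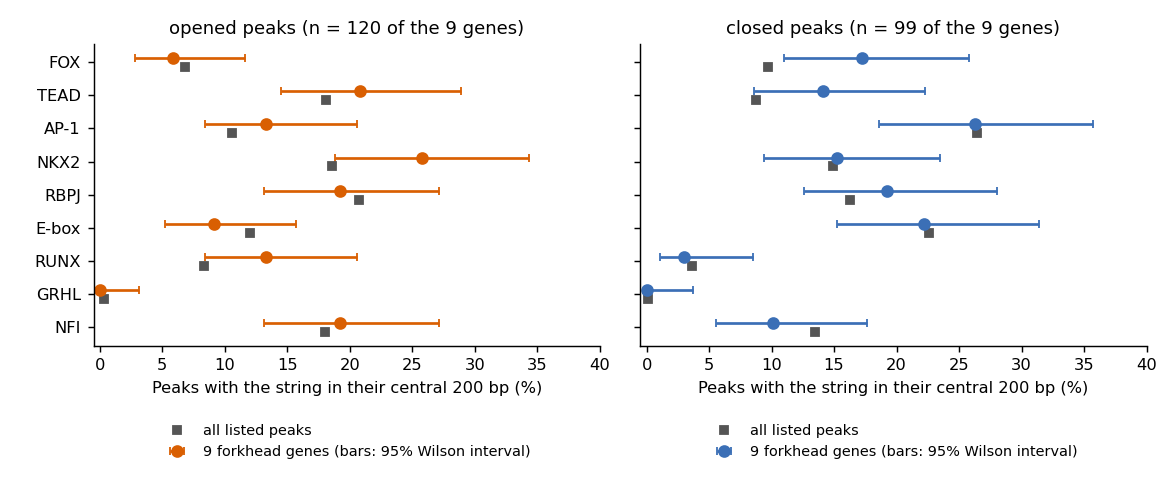
Share of peaks (%) with each string in the central 200 bp, for opened (left) and closed (right) peaks of the 9 forkhead genes (circles, 95% Wilson intervals as bars) and for all listed peaks of the same list (squares). The FOX circle of the closed peaks (17.2%) lies above its square (9.70%) with the whole bar. In the opened peaks the bars of NKX2 (25.8%) and RUNX (13.3%) end only just above their squares. The FOX circle of the opened peaks (5.83%) lies near its square (6.84%).

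Other forkhead genes differed widely. Of 35 further genes of the family, 27 had a listed peak, 11 with more opened, 10 with more closed and 6 with equal numbers, and of their 151 peaks 72 were opened (47.7%). Foxj1, the regulator of motile cilia, had 4 opened peaks and no closed one, Foxc1 had 2 opened and 15 closed, and Foxn3, with the most peaks of these, had 21 and 23. Among known partners and regulators, 89 of 126 peaks were opened (70.6%), with more opened than closed at 9 of the 11 genes with a peak. Among the kinases that act on FOXO factors, Akt2 had 2 opened and 4 closed peaks and Sgk1 had 6 and 9. Nkx2-1, which acts with FOXA factors in the lung, had 6 opened and 5 closed.

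The labels of the groups were checked by the peaks at marker genes. Hes1, whose locus drives the reporter, had 26 opened and 11 closed peaks, and pulmonary neuroendocrine markers had 11 opened and 64 closed, with all 28 listed peaks of Insm1 closed but 8 opened and 6 closed peaks at Chga. Club cell markers were 83.9% opened (26 of 31 peaks). Markers of ciliated cells, a list that holds Foxj1, were 34.8% opened (8 of 23), with 2 opened and 13 closed peaks at Dnah5. Markers of other cells that a tumor can hold were 65.0% opened for leukocytes (13 of 20), 23.5% for endothelium (12 of 51) and 43.5% for fibroblasts (10 of 23), although cells with CD45, CD31 or TER-119 were gated out in the sort. Markers of alveolar type 1 cells were 88.5% opened (23 of 26) and those of alveolar type 2 cells 93.3% (14 of 15). The paper reports higher RNA levels of alveolar markers in the GFP high than in the GFP neg cancer cells. The part of other cell types in the opened peaks of Foxo3, Foxq1 or any other member was not tested.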

How the data were processed

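Small cell lung cancer cells of TKO;Hes1 GFP/+ mice were sorted into GFP high and GFP neg cells and profiled by ATAC-seq in 8 libraries, 16 runs in all. The authors trimmed the reads, mapped them to mm10 with Bowtie2 (2.3.4.1), removed duplicates, called narrow peaks with MACS2 with reads shifted to the Tn5 cut, merged the peaks of all samples, counted raw reads per peak and compared the groups with DESeq2 (1.28.1). Whether the 2 lanes of a library were summed is not given in the sources used here, nor is a term for the animal. The deposited lists hold the peaks that passed the authors' limits on the adjusted p-value and the fold change. The signal used here is the column of the authors' mean, deposited per peak as the mean of normalised reads over all samples of both groups. The other deposited columns hold the authors' log2 fold changes, standard errors, test statistics and p-values, which were not used, so direction here means the list in which a peak was deposited. The lists hold no value per library, and the depth is unknown.

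Peak centres were assigned to the nearest start site of a protein-coding gene in the basic GENCODE annotation of GRCm38.p6, the assembly of mm10. Where a gene has several start sites, distance is to the nearest. Positions are given 1-based. Strings were searched without mismatches on both strands in the central 200 bp of each peak, and matches of different strings may overlap. Shares have 95% Wilson intervals. No test was made, because peaks are not replicates and neighbouring peaks are not independent. Named peaks are those within 1 kb of a start site of their gene, the opened and the closed peak with the highest mean, and the farthest peak of each gene, and other peaks named in the text were chosen after their values were seen. The member genes and gene lists were chosen with earlier results of these data known. Some named genes and a peak sequence are not reported here. Foxa2os, in the list of regulators, had no match among protein-coding genes. Other ways of assigning peaks, of setting the promoter and of writing the forkhead string were tried, and the assignment was tested on simulated peaks. The scripts used Python 3.11.15, with pandas 2.3.3 and numpy 2.4.6 for the tables, scipy 1.17.1 for intervals and matplotlib 3.10.9 for plots.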

Additional observations from a re-analysis of the deposited data

How the results depend on the processing

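The number of peaks assigned to the 9 genes depended on the rule, with 219 as reported, 141 when the centre had to lie within 100 kb of the start site, 90 when it had to lie in the gene body or within 10 kb of it, and 109 when the authors' mean had to reach the median of all listed peaks (31.5). The share of opened peaks, 54.8%, rose above its interval only among the peaks with such a mean (62.4%, against 58.9% of all listed peaks of that kind). Leaving out each gene in turn kept it between 51.5% (without Foxq1) and 58.0% (without Foxa2). The promoter share of the peaks, 5.94%, came to 14.4% for the gene body rule, 10.1% for the higher means and 12.8% with a promoter of 3 kb (24.7% of all listed peaks). The FOX share, 11%, came to 3.65% with the longer string TGTTTACA (3.27% of all listed peaks) and to 22.4% with TGTTTAC or TGTTTGC (17.8%), and in whole peaks to 14.6% (10.4%), where opened peaks with the string rose from 7 to 14 and closed ones from 17 to 18. Within 100 kb the interval of Foxo3 (80.0%, 54.8 to 93.0) held the share of all listed peaks (55.7%). At Foxq1 all peaks were opened under the 100 kb, the gene body and the higher mean rules (100%), and at Foxa2 both peaks under the gene body rule were opened (100%). Start sites of protein-coding transcripts only, and merging of peaks within 100 bp, left all 13 values within their limits. No paired analysis was possible because the lists hold no value per library. A stricter limit of the authors' test was not run, since it needs the columns of their comparison that were not used. The lists hold no peaks below the authors' limits, so the shares do not refer to all accessible sites, and weak peaks rest on few reads.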
